A study of Mus musculus with 10 samples.

Results

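Expression of 10 genes that build the centrosome or organise the poles of the mitotic spindle, and whose human counterparts are known from inherited microcephaly, was examined in the embryonic mouse cortex after deletion of Dot1l. The genes were listed by name, Cenpj with Aspm, Cdk5rap2, Wdr62, Mcph1, Cep152, Stil, Cep135, Cep63 and Plk4, and they are 10 of the 43629 genes in the count tables. No cut-off on a measured value was applied, but the list was made with earlier results of these data known. The study had already reported lower Cenpj expression in Dot1l-cKO at E14.5, so the call of Cenpj below is not independent of that report. All 10 had enough counts to be tested. RNA-seq of total RNA was done on the dorsal telencephalon at E14.5, when radial glia divide at the ventricle and neurons are being produced. The comparison asks which transcripts depend on DOT1L, a histone H3 lysine methyltransferase. All 10 animals were C57BL/6 mice. The 5 controls, littermates per the study's methods, carried no Cre and 1 floxed Dot1l allele (Dot1l f/+). The 5 Dot1l-cKO samples carried 1 Cre allele and 2 floxed alleles (Dot1l f/f). The Cre allele was present in Dot1l-cKO alone, so loss of Dot1l and any effect of the Cre allele itself cannot be told apart in this design.

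Centrioles are duplicated once in each cell cycle. The kinase PLK4 is brought to the mother centriole by CEP152, which CEP63 helps to place there, and it then acts on STIL to start a new centriole. CENPJ, also called CPAP, adds centriolar tubulin and sets the length of the new centriole, and CEP135 belongs to its inner scaffold. CDK5RAP2 holds the pericentriolar matrix and its gamma-tubulin to the centriole, ASPM and WDR62 act at the spindle poles, and MCPH1 links chromosome condensation and the entry into mitosis. Radial glia divide at the ventricular surface with a centrosome at each spindle pole, and variants in the human genes are known causes of primary microcephaly or related disorders with a small brain.

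The stretch of 250 bases before the start given by RefSeq follows for the 3 genes in which every Dot1l-cKO sample lay below every control sample, 5′ to 3′ on the strand of the gene, on GRCm38.p6. For Cenpj, GENCODE also lists transcripts that start farther upstream, up to 56575425, and the bases before those starts were not searched. Capitals mark CCAAT, the core of the NF-Y box, with its reverse complement ATTGG, and TTCCCGC, a form of the E2F site.
Cenpj, chr14:56571847-56572096, minus strand: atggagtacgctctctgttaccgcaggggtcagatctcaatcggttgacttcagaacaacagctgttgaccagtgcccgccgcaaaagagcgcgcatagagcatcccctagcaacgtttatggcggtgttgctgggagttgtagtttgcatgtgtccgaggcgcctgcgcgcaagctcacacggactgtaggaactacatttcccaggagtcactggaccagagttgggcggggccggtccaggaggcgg
Cep152, chr2:125625114-125625363, minus strand: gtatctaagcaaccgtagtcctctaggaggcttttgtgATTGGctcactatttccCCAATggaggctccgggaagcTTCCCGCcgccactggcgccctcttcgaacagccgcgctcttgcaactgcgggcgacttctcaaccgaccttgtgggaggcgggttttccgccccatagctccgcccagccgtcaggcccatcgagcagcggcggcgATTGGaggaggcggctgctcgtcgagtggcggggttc
Stil, chr4:114999868-115000117, plus strand: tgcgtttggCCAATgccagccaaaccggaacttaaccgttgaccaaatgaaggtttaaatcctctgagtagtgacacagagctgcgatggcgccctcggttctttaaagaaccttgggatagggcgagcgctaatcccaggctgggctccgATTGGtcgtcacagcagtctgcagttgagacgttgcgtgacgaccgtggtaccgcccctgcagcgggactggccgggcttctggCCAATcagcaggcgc

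These 3 promoters differ in the letters they hold. The Cenpj stretch holds none of the motifs searched, whereas Cep152 holds CCAAT at 3 places and TTCCCGC once, and Stil holds CCAAT at 3 places and TTCCCGC among the bases after its start, which are not printed. The search covered both strands from 250 bases before to 50 bases after the start, and 9 of the 10 genes had an entry, Wdr62 having 2 and Mcph1 none. A gene was counted where any of its entries held the motif. CCAAT was found in 5 of 9 genes (Aspm, Wdr62, Cep152, Stil and Cep135), against 41.1% of the 27025 mouse genes in the same table. TTCCCGC was found in 4 of 9 (Wdr62, Cep152, Stil and Plk4), against 5.29% of all. TTTGAA, the cell cycle homology region, was found in Aspm and Cdk5rap2, against 20.2% of all, and TTGGCGC, another E2F form, in 0 of 9, against 2.85% of all. None of these motifs overlaps another by its letters in the stretches shown. A match describes the sequence only, and binding was not measured here.

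Total counts ranged from 54202349 to 66556034 per sample. Replicates 2 and 3 of both groups share the number 57 at the head of their columns in the normalised tables and had 0.0471% to 0.492% of their counts in 2 mitochondrial rRNA genes, against 5.79% to 10.9% in replicates 1, 4 and 5. Each difference was therefore also taken within these 4 and within the other 6 samples. Levels are given as CPM, the count of a gene scaled to a library total of 1e+06 after TMM normalisation. The summed count of the targeted gene did not separate the groups. Control replicates 1 to 5 had 31.4, 41.5, 36.6, 40.6 and 36.3 CPM of Dot1l, and the Dot1l-cKO replicates, in the same order, had 42.3, 20.1, 39.6, 43.4 and 51.7 CPM (log2 fold change 0.08, edgeR adjusted p-value 0.864). The sum runs over all exons, so it does not tell whether a part of the gene was deleted, and only Dot1l-cKO replicate 2 lay below the controls. The study itself reported a significant loss of Dot1l mRNA by qRTPCR in Dot1l-cKO telencephalon at E14.5. The groups are thus used here as labelled, with no check from the summed count of this gene.

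All 10 genes had a lower fitted level in Dot1l-cKO, with log2 fold changes from -0.49 for Wdr62 to -0.03 for Cep63, and Cenpj and Cep152 passed the test. The median over the 10 was -0.29, against -0.01 over the 17039 genes tested, of which 51.2% had a negative value. By edgeR's quasi-likelihood test at an adjusted p-value of 0.05, 2 of the 10 were decreased, against 1.44% of all genes tested, and 0 were increased, against 5.67%. At an unadjusted p-value of 0.05, 8 of the 10 passed, all of them lower, against 7.3% of all genes that passed and were lower. With DESeq2, 5 of the 10 were decreased (Cenpj, Cdk5rap2, Wdr62, Cep152 and Stil), against 3.43% of the 19302 genes it tested, and 0 were increased. The edgeR test called 0 of the 10 without control replicate 1, 2 or 4 or Dot1l-cKO replicate 1 or 4. In those fits the decreased genes among all genes tested also fell, from 246 to between 126 and 149. With either set of samples described above tested alone, 0 of the 10 were called. Decreased genes among all then numbered 0 within replicates 2 and 3 and 155 within replicates 1, 4 and 5. Samples of Dot1l-cKO all lay below the controls for 3 genes, Cenpj, Cep152 and Stil, against 2.17% of all genes tested. The mean was lower in Dot1l-cKO in both sets of samples for all 10 genes, against 32.8% of all genes tested. In each of the 5 pairs of samples with the same number, 6 of the 10 were lower in Dot1l-cKO, against 11.6%.

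**Figure D1:**
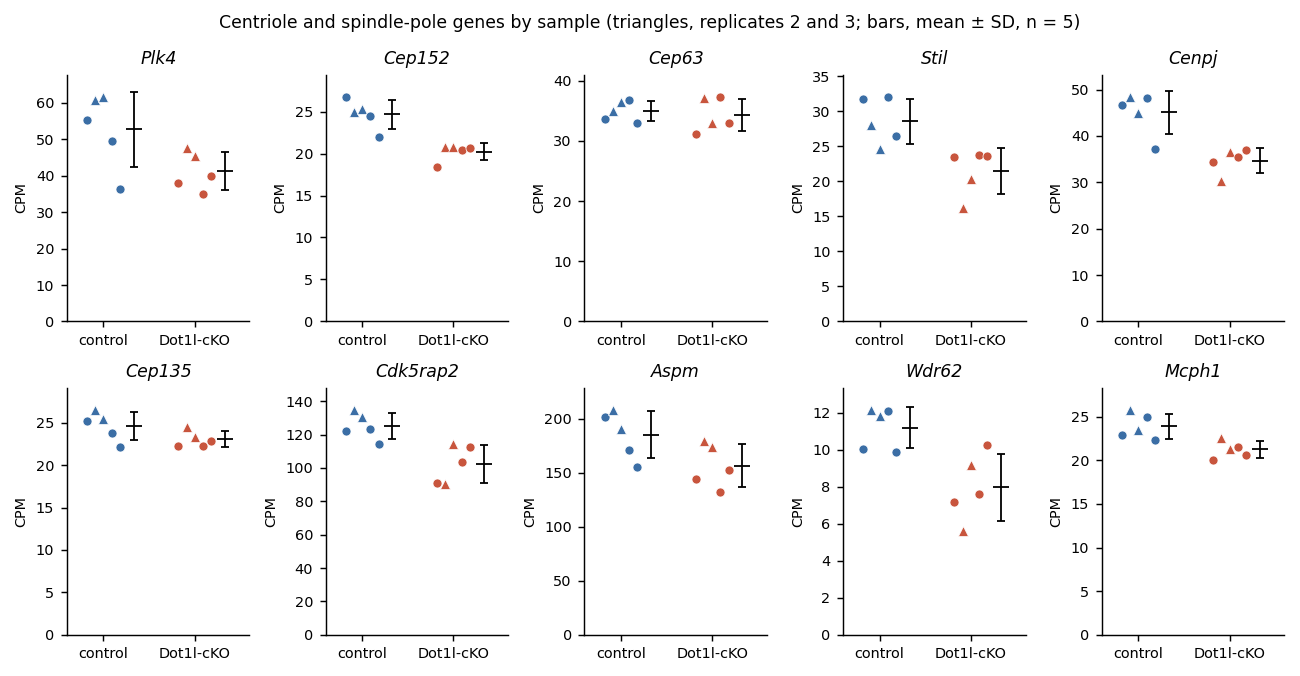
Level of each gene in CPM (vertical axis, from 0) in the 5 control and 5 Dot1l-cKO samples, with triangles for replicates 2 and 3 and circles for replicates 1, 4 and 5, and black bars for the mean ± SD (n = 5). Cenpj, Cep152 and Stil show no overlap between the groups, whereas Cep63 ranged from 33.0 to 36.9 CPM in controls and from 31.2 to 37.3 CPM in Dot1l-cKO.

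Cenpj (ENSMUSG00000064128, chromosome 14 from 56526761 to 56575425, minus strand, GRCm38) was examined first. Control replicates 1 to 5 had 46.7, 48.4, 44.8, 48.2 and 37.2 CPM. The Dot1l-cKO replicates, again from 1 to 5, had 34.4, 30.2, 36.6, 35.4 and 36.9 CPM, and this order holds for all values by sample that follow. The groups did not overlap, but control replicate 5 lay far below the other controls and just above the highest Dot1l-cKO sample. The mean fell from 45.1 ± 4.63 to 34.7 ± 2.69 CPM (SD, n = 5 each), and the fitted level fell by 23.0% (log2 fold change -0.38, SE 0.09, 95% interval -0.57 to -0.18, edgeR adjusted p-value 0.0249). Within replicates 2 and 3 the mean log2 CPM differed by -0.49, and by -0.30 within replicates 1, 4 and 5. With the replicate number as a block the adjusted p-value was 0.0483. Leaving out control replicate 1, 2 or 4 or Dot1l-cKO replicate 1 or 4 raised it to between 0.0522 and 0.0697, and leaving out control replicate 5 lowered it to 0.00638, while the log2 fold change stayed between -0.44 and -0.33 over the 10 fits that each left out 1 sample.

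Of the genes that start a new centriole, Cep152, the receptor of PLK4 at the mother centriole, was the other one that passed the test. Cep152 (ENSMUSG00000068394, chromosome 2 from 125563088 to 125625113) was at 26.7, 24.9, 25.3, 24.4 and 21.9 CPM in controls and at 18.5, 20.8, 20.7, 20.4 and 20.7 CPM in Dot1l-cKO. Dot1l-cKO replicates 2 to 5 lay close together, and replicate 1 lay below them. The mean fell from 24.7 ± 1.74 to 20.2 ± 0.996 CPM (SD, n = 5 each), and the fitted level by 18.0% (log2 fold change -0.29, 95% interval -0.44 to -0.13, edgeR adjusted p-value 0.0358). The difference was almost the same in both sets of samples, -0.27 within replicates 2 and 3 and -0.29 within the others. The call was nevertheless close to the threshold. With the replicate block the adjusted p-value was 0.0597, without a filter on low counts it was 0.0733, and it lay between 0.0502 and 0.1002 when any sample other than control replicate 5 was left out, and at 0.0189 without that sample.

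Stil, the substrate through which PLK4 starts the procentriole, had a larger fitted difference than Cenpj and a wider spread. Stil (ENSMUSG00000028718, chromosome 4 from 115000159 to 115043196) was at 31.7, 28.1, 24.7, 32.1 and 26.5 CPM in controls and at 23.5, 16.1, 20.4, 23.8 and 23.6 CPM in Dot1l-cKO. Replicates 2 and 3 were the lowest of the Dot1l-cKO samples, and the groups did not overlap. The log2 fold change was -0.41 (SE 0.12, 95% interval -0.68 to -0.15), and the edgeR adjusted p-value of 0.0634 missed the threshold. With the replicate block it was 0.0353, in a fit that called 2.91% of all genes tested as decreased and 2 of the 10 genes, Cenpj and Stil. With the number at the head of the columns as a block, which called 3.5% as decreased, Cenpj, Cep152 and Stil all passed, with adjusted p-values of 0.0351, 0.0390 and 0.0234.

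The kinase itself varied most among the controls. Plk4 (ENSMUSG00000025758, chromosome 3 from 40800019 to 40816883) was at 55.3, 60.8, 61.6, 49.4 and 36.3 CPM in controls and at 37.9, 47.6, 45.4, 35.0 and 40.0 CPM in Dot1l-cKO. Control replicate 5 lay below 4 of the 5 Dot1l-cKO samples. The log2 fold change was -0.35 (95% interval -0.67 to -0.04, edgeR adjusted p-value 0.181). Without control replicate 5 the values were -0.46 and 0.0264, so this library decides whether Plk4 is called.

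The remaining centriolar genes showed the smallest differences. Cep63 (ENSMUSG00000032534, chromosome 9 from 102584588 to 102626534), whose product places CEP152, was at 33.6, 35.0, 36.4, 36.9 and 33.0 CPM in controls and at 31.2, 37.0, 33.0, 37.3 and 32.9 CPM in Dot1l-cKO. Its groups overlapped over most of their range, with a log2 fold change of -0.03 (95% interval -0.18 to 0.13, edgeR adjusted p-value 0.861), and the value turned to 0.020 with a GC-content offset. Cep135 (ENSMUSG00000036403, chromosome 5 from 76588698 to 76646466), of the inner scaffold, was at 25.2, 26.5, 25.4, 23.8 and 22.2 CPM in controls and at 22.2, 24.5, 23.4, 22.2 and 22.8 CPM in Dot1l-cKO. None of its Dot1l-cKO samples lay below the lowest control, and the log2 fold change was -0.10 (95% interval -0.25 to 0.05, edgeR adjusted p-value 0.480). The intervals of Cep63 and Cep135 leave out the value fitted for Cenpj, -0.38. The interval of Cenpj itself, -0.57 to -0.18, overlaps that of Cep135 and ends about where that of Cep63 begins. Whether the genes differ from each other was not tested.

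**Figure D2:**
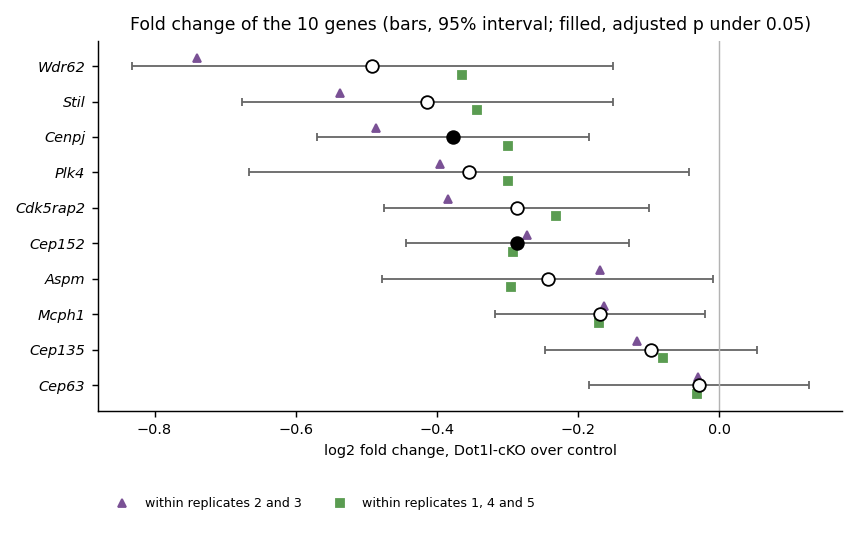
Log2 fold change of each gene in Dot1l-cKO over control (horizontal axis), with the 95% interval as a bar, filled circles for an adjusted p-value under 0.05 in the edgeR test, and the differences within replicates 2 and 3 (triangles) and within replicates 1, 4 and 5 (squares). All values lie below 0, Cenpj (-0.38) and Cep152 (-0.29) are filled, and the intervals of Cep135 and Cep63 include 0.

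Among the genes of the pericentriolar matrix and spindle poles no gene passed the edgeR test. Cdk5rap2 (ENSMUSG00000039298, chromosome 4 from 70216856 to 70410443), which anchors gamma-tubulin, was at 122, 135, 131, 123 and 114 CPM in controls and at 91.1, 90.2, 115, 103 and 113 CPM in Dot1l-cKO. Dot1l-cKO replicates 1 and 2 stood clearly below the rest, and replicate 3 just reached the lowest control. The log2 fold change was -0.29 (95% interval -0.47 to -0.10, edgeR adjusted p-value 0.0709, DESeq2 adjusted p-value 0.0142). Cdk5rap2 shares 365 exonic bases with the pseudogene Ywhaq-ps3 on the same strand, and how reads there were assigned was not examined.

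Wdr62 (ENSMUSG00000037020, chromosome 7 from 30240138 to 30280419), a spindle-pole scaffold, had the lowest counts and the largest fitted difference. It was at 10.1, 12.1, 11.8, 12.1 and 9.91 CPM in controls and at 7.19, 5.58, 9.17, 7.63 and 10.2 CPM in Dot1l-cKO. Dot1l-cKO replicate 5 lay inside the range of the controls, and replicate 2 lay lowest. The log2 fold change was -0.49 (SE 0.16, 95% interval -0.83 to -0.15, edgeR adjusted p-value 0.0866, DESeq2 adjusted p-value 0.0192), and without Dot1l-cKO replicate 5 the edgeR adjusted p-value was 0.0390. The difference was -0.74 within replicates 2 and 3 and -0.36 within the others.

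Aspm (ENSMUSG00000033952, chromosome 1 from 139454772 to 139494091), which focuses microtubules at the spindle pole, was the most abundant of the 10. It was at 201, 208, 190.3, 171 and 156 CPM in controls and at 144, 179.8, 174, 132 and 153 CPM in Dot1l-cKO. Replicates 2 and 3 were the highest of the Dot1l-cKO samples and lay inside the range of the controls. The log2 fold change was -0.24 (95% interval -0.48 to -0.01, edgeR adjusted p-value 0.223). Mcph1 (ENSMUSG00000039842, chromosome 8 from 18595131 to 18803189), the regulator of condensation, was at 23.0, 25.8, 23.5, 25.0 and 22.3 CPM in controls and at 20.1, 22.6, 21.3, 21.6 and 20.7 CPM in Dot1l-cKO. Its Dot1l-cKO samples lay below all controls except for replicate 2, which lay just above control replicate 5, and the log2 fold change was -0.17 (95% interval -0.32 to -0.02, edgeR adjusted p-value 0.180).

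The counts behind these values ranged from 322 for Wdr62 to 12709 for Aspm in a sample. The relative counting error at the lowest count of a gene was 1.14% for Aspm, 2.40% for Cenpj and 5.57% for Wdr62. The spread between replicates was larger for every gene, with a coefficient of variation of 10.3% for Cenpj and 19.7% for Plk4 in controls and of 22.7% for Wdr62 in Dot1l-cKO.

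Levels of different genes were compared per kilobase of all exons of a gene. In controls the order was Aspm at 16.0 CPM per kb, Cdk5rap2 at 9.61, Cenpj at 9.24, Plk4 at 7.68, Stil at 4.94, Cep152 at 4.27, Cep63 at 3.65, Cep135 at 3.43, Mcph1 at 3.06 and Wdr62 at 1.95 CPM per kb (means, n = 5). The ranges over the controls did not overlap for Aspm and Cdk5rap2 or for Mcph1 and Wdr62, and overlapped for all other neighbours in this order. Cenpj spanned 7.63 to 9.93 CPM per kb. Compared within each sample, Cenpj lay above Plk4 in 5 of 5 controls, while Cdk5rap2 lay above Cenpj in 3 of 5. In Dot1l-cKO the order of the means was the same, except that Cep63 at 3.57 CPM per kb stood above Cep152 at 3.50. The order depends on the length used. With the longest transcript as the length, Plk4 at 15.1 CPM per kb in controls stood next to Aspm. It was then above Cdk5rap2 at 10.6 and Cenpj at 9.47, which kept their order. Cep152 moved from rank 6 to rank 9, and Cep63 from rank 7 to rank 5.

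The genes did not vary together as a single group. On log2 CPM with the group means removed, the median Pearson r over the 45 pairs of genes was 0.33 across the 10 samples. Plk4, Cep135 and Aspm kept close company within groups, with r of 0.96 for Cep135 and Plk4, 0.91 for Aspm and Cep135 and 0.90 for Aspm and Plk4. Cenpj varied with Wdr62 (0.73) and Cdk5rap2 (0.72), which had an r of 0.88 with each other, and less with Aspm (0.22) or Plk4 (0.43). Dot1l-cKO replicate 2 shows the split. It was the lowest of the 10 samples for Cenpj, Cdk5rap2, Wdr62 and Stil, and the highest of the 5 Dot1l-cKO samples for Aspm, Plk4, Cep135 and Mcph1. Cep152 belongs to neither side clearly. Its level in this sample, 20.78 CPM, was nearly that of replicate 3, 20.75 CPM, and its r was 0.53 with Cenpj and 0.73 with Plk4. These correlations are descriptions over 10 samples that differ in their share of mitochondrial rRNA, and the 2 sets of genes were seen in these values.

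The genes with a pattern most like that of Cenpj over all 10 samples were Wee1, a kinase that holds back mitosis (Pearson r 0.96), Ncapd2, a condensin subunit (0.96), Tdg, a DNA glycosylase (0.96), Ttll4, a tubulin polyglutamylase (0.96), and Med1, a Mediator subunit (0.95), out of 12658 genes whose mean log2 CPM was 1 or more. Each of these has a group difference of the same sign as Cenpj, which adds to r. With the group means removed r lay between 0.85 for Ttll4 and 0.91 for Tdg. By the edgeR test Wee1 (log2 fold change -0.44, adjusted p-value 0.0345), Ncapd2 (-0.40, 0.0255) and Ttll4 (-0.43, 0.00746) were decreased, whereas Tdg (-0.23, 0.103) and Med1 (-0.25, 0.0778) missed the threshold. Of the other 9 centrosome and microcephaly genes, Cdk5rap2 ranked highest among the 12658, at 68 with an r of 0.90, and Cep63 lowest at 5421 with an r of 0.16.

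Markers of dividing cells were compared beside the 10 genes, since centriole genes are used by cells in the cycle. In bulk tissue, fewer cells of a type and less RNA per cell cannot be told apart. All 14 proliferation markers had negative log2 fold changes, with a median of -0.17, and of these Rrm2, a subunit of ribonucleotide reductase, was decreased (from 182 ± 32.7 to 125 ± 19.5 CPM, SD, n = 5 each, log2 fold change -0.54, edgeR adjusted p-value 0.0444). Their mean log2 CPM was 7.28 ± 0.20 in controls and 7.11 ± 0.12 in Dot1l-cKO. Control replicate 5 had the lowest value of all samples, 6.95, and it was also the lowest control for Cenpj, Aspm, Cdk5rap2, Wdr62, Mcph1, Cep152, Cep135, Cep63 and Plk4. Taken relative to this mean in each sample, 7 of the 10 genes remained lower in Dot1l-cKO and 3, Mcph1, Cep135 and Cep63, were higher, and for 0 of the 10 the groups stayed apart. The difference relative to the markers was -0.34 for Wdr62, -0.24 for Stil, -0.20 for Cenpj and -0.16 for Plk4 on the log2 scale. It was -0.11 for Cdk5rap2, -0.11 for Cep152 and -0.07 for Aspm. For the 3 higher genes it was 0.15 for Cep63, 0.08 for Cep135 and 0.01 for Mcph1. The value of Mcph1 is small beside its SD of 0.16 among controls. For Cenpj, the relative level ran from -1.88 to -1.67 in controls and from -2.36 to -1.77 in Dot1l-cKO, where replicate 2 lay lowest and replicate 5 reached the controls. The part of dividing cells in the differences was not tested.

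**Figure D3:**
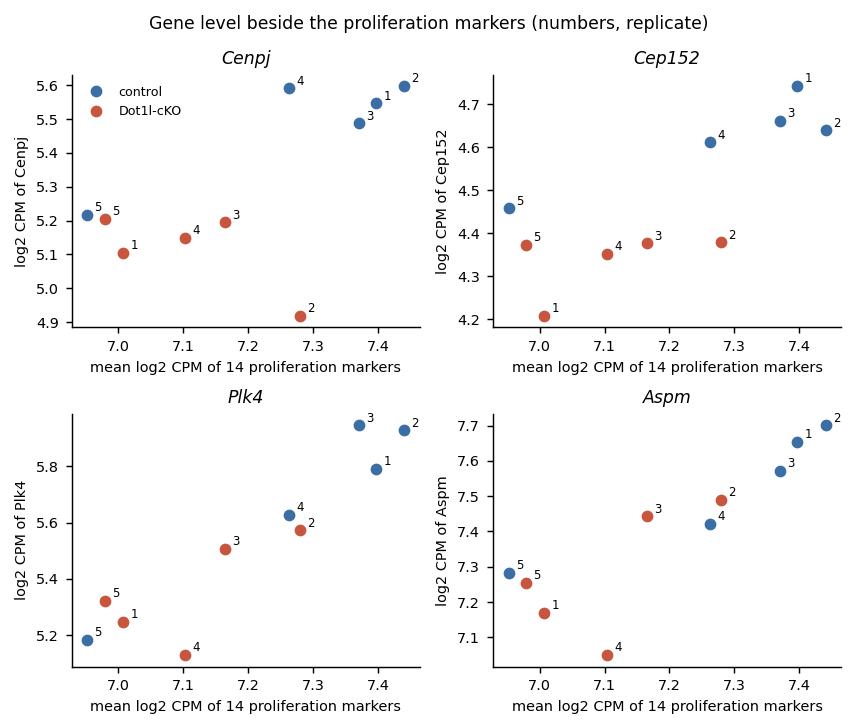
Log2 CPM of Cenpj, Cep152, Plk4 and Aspm (vertical axes, not from 0) against the mean log2 CPM of 14 proliferation markers in each sample (horizontal axis), with controls in blue, Dot1l-cKO in red and replicate numbers beside the points. Relative to the markers the groups differed by -0.20 for Cenpj, -0.16 for Plk4, -0.11 for Cep152 and -0.07 for Aspm, and they overlapped for each gene. Dot1l-cKO replicate 2 and control replicate 4 have nearly the same marker level. Of these samples, Dot1l-cKO replicate 2 lies lower for Cenpj, Cep152 and Plk4 and higher for Aspm.

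Other genes of the centrosome and of microcephaly were examined in 6 lists with 115 genes in all, each of which was tested. Of these, 98 had a negative log2 fold change, with a median of -0.14. By the edgeR test 5 were decreased, which is 4.35% of the lists against the 1.44% given above for all genes, and 0 were increased. The count moved with the fit, to 1 to 12 with a sample left out (12 without control replicate 5, 1 without control replicate 1 or 2, 2 without control replicate 4 or Dot1l-cKO replicate 3 or 4, and 3 without Dot1l-cKO replicate 1), 11 with the replicate block and 18 with DESeq2. In 11 of them (9.57%, against 2.17%) all Dot1l-cKO samples lay below all controls. The lists differ from all genes in more than their function, such as level and use in dividing cells, and no test of the lists was made.

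Of 26 other genes of centriole duplication, assembly and length, 23 were lower (median log2 fold change -0.16) and 1 passed the test. This was Cep76, which limits repeated centriole duplication, which fell from 36.7 ± 4.53 to 28.2 ± 1.28 CPM (SD, n = 5 each, log2 fold change -0.38, edgeR adjusted p-value 0.0244). Of 25 genes of the pericentriolar matrix and gamma-tubulin ring, 22 were lower (median -0.07) and 1 passed, Cep83, which is known as a distal appendage protein needed for cilia and not as a matrix protein (from 43.6 ± 4.15 to 35.4 ± 1.81 CPM, log2 fold change -0.30, edgeR adjusted p-value 0.0360). Of 11 centriolar satellite genes and 27 genes of the spindle and its poles, 0 passed in either direction, with medians of -0.07 and -0.16.

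The other microcephaly genes held the largest decrease of these lists. Of 17, 16 were lower (median log2 fold change -0.20) and 2 passed. Cdk6, a kinase of the G1 phase, fell from 31.1 ± 3.45 to 19.7 ± 4.51 CPM (SD, n = 5 each, log2 fold change -0.66, edgeR adjusted p-value 0.0301), and Ncapd2, already named for its likeness to Cenpj, fell from 298 ± 21.5 to 226 ± 27.3 CPM (log2 fold change -0.40, edgeR adjusted p-value 0.0255). Of 9 genes of the pathway that stops cells with missing or extra centrosomes, 7 were lower (median -0.15) and 1 passed, Usp28, a deubiquitinase that acts upstream of p53 there (from 38.1 ± 2.55 to 28.5 ± 2.76 CPM, log2 fold change -0.42, edgeR adjusted p-value 0.0104).

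**Figure D4:**
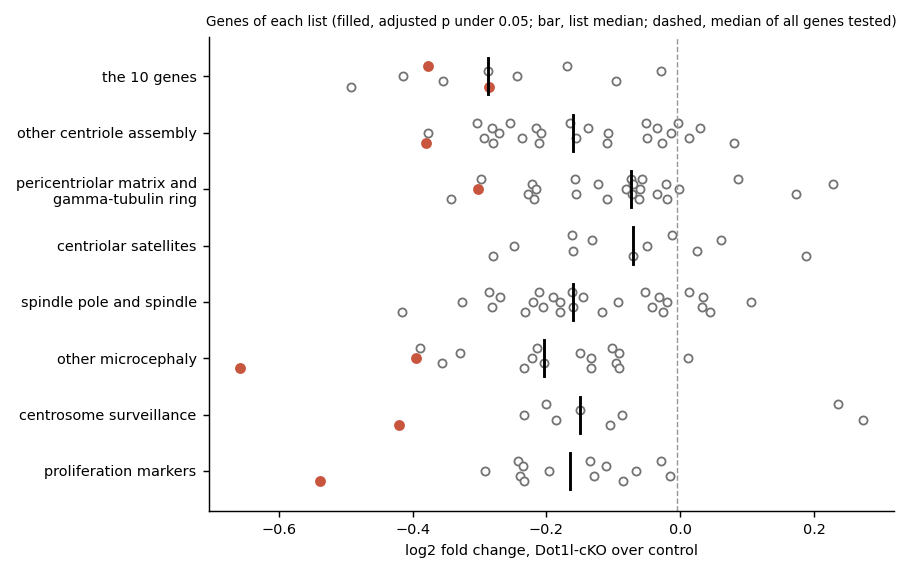
Log2 fold change in Dot1l-cKO over control (horizontal axis) of each gene of the 10, of the 6 other lists of centrosome and microcephaly genes and of 14 proliferation markers, with filled circles for an adjusted p-value under 0.05, bars for list medians and a dashed line for the median of all genes tested (-0.01). The medians lie between -0.29 for the 10 genes and -0.07, all left of the dashed line, and most circles are open.

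Marker lists of the cells in the tissue did not move together. Of 8 markers of radial glia, the progenitors that divide at the ventricle, 5 were lower and 3 higher, with a median of -0.18. Pax6 was decreased (log2 fold change -0.36, edgeR adjusted p-value 0.0294), and Fabp7 (0.62, 0.0122), Vim (0.53, 0.00451) and Slc1a3 (0.43, 0.00447) were increased. The sum of the 8 ran from 2184 to 2699 CPM in controls and from 2857 to 3201 CPM in the other group. Abundant markers weigh most in this sum, among them Vim (mean from 919 to 1323 CPM) and Fabp7 (from 429 to 660 CPM). It therefore does not show that most of the 8 were higher. Of 5 markers of intermediate progenitors and 8 of postmitotic neurons, 0 passed in either direction, with medians of 0.08 and 0.19. All 5 microglia markers were increased, led by C1qa (1.04, 0.0113), Cx3cr1 (0.93, 0.00165) and Csf1r (0.88, 0.0414), with sums of 26.1 to 47.8 CPM in controls and 52.2 to 82.2 CPM in Dot1l-cKO. Of 8 markers of interneurons and the ventral telencephalon, all 7 that were tested were lower, with a median of -1.75. Of these only Lhx6 passed (-3.00, 0.00187). Nkx2-1 was too low to test, at 0.141 to 3.61 CPM in controls and 0.0483 to 0.189 CPM in Dot1l-cKO. The sum of these 8 ran from 54.7 to 280 CPM in controls and from 5.36 to 81.7 CPM in Dot1l-cKO. Of 5 markers each of red blood cells, endothelium and the choroid plexus with the cortical hem, 0 passed, and no marker was at 0 in all samples. The part of these cell types in the differences of the centrosome genes was not tested.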

How the data were processed

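Per the labels and the study's methods, the authors made stranded libraries from total RNA, trimmed reads with Trim Galore 0.2.8, mapped them to mm10 with TopHat2 2.0.9 and assigned them to Ensembl genes with HTSeq 0.6.0. The deposited values are whole-number counts per gene, and a second table per sample holds a normalised signal, which the authors made by dividing the counts by the DESeq2 1.6.1 size factor of the sample. In each sample the ratio of count to normalised value was constant within rounding. The size factor was read from that ratio and not computed anew, so how the authors derived it was not checked. Groups and replicate numbers came from the sample titles. Of 43629 gene identifiers, 42462 matched a symbol in GENCODE M21 (GRCm38), from which coordinates and lengths were taken. The identifiers without a symbol held 0.156% to 0.896% of the counts of a sample. Reads carried no molecular identifiers, so counting error is a lower limit of the error.

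Genes were filtered with filterByExpr and normalised with TMM, and genotype was tested with edgeR 4.0.16 (quasi-likelihood, no covariate, Benjamini-Hochberg over all genes tested, threshold 0.05) in R 4.3.3. The SE is the log2 fold change divided by the square root of F. CPM use a total of 1e+06, and log2 CPM a prior count of 2. Another gene of the rule for named genes is not reported here. The test was tried on simulated counts with known changes. The 10 genes and the other lists were chosen with earlier results of these data known. From each list, the 3 called genes with the largest change and any gene too low to test are named, and the 5 genes with the highest r with Cenpj.

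Same-numbered samples of the groups had correlated deviations from the group means (r 0.131 to 0.597 over genes, above 0.1 in all 5 pairs), and on that rule the numbers, which the titles give, were taken to pair the samples, although only 5 of 10 samples correlated best with their own number. Same-numbered samples also share the number at the head of their columns, and the main test used no pairing. Within number 57, control replicate 2 had an r of 0.349 with Dot1l-cKO replicate 2 and of 0.350 with replicate 3. Control replicate 3 had an r of 0.145 with Dot1l-cKO replicate 3 and of -0.033 with replicate 2. Some samples with different numbers also had an r above 0.1. Control replicate 3 had an r of 0.446 with Dot1l-cKO replicate 5. Control replicate 5 had an r of 0.294 with Dot1l-cKO replicate 4 and of 0.131 with replicate 5. The labels do not tie samples to litters. No replicate libraries of a group agreed within counting noise (chi-square per degree of freedom at least 30.8). Alternatives were DESeq2 1.42.0, its size factors in edgeR, other count filters, the replicate number or the number at the head of the columns as a block, a GC-content offset, removal of mitochondrial genes, limma 3.58.1 on log2 of the deposited normalised counts plus 1, each set of samples alone, and each sample left out.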

Additional observations from a re-analysis of the deposited data

Results flagged for a closer look

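Of 22 groups of 5 samples examined (the 10 genes and Dot1l in both genotypes, on log2 CPM), 3 held an end sample that stood apart, with a gap to the next value, as a share of the group's range, past Dixon's limit of 0.71, where chance flags about 1 group in 20. Cenpj in control replicate 5 had a gap of 0.712, at 5.22 log2 CPM against a group median of 5.55, from 2303 counts. Cep152 in Dot1l-cKO replicate 1 had a gap of 0.841, at 4.21 against 4.37, from 978 counts. Dot1l in Dot1l-cKO replicate 2 had a gap of 0.717, at 4.33 against 5.40, from 1158 counts, and this sample was also the lowest of all 10 for Cenpj, Cdk5rap2, Wdr62 and Stil.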

How the results depend on the processing

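The log2 fold change of Cenpj stayed negative and past the threshold in the alternatives on all 10 samples, with an adjusted p-value of up to 0.0483 (edgeR, replicate block). With each sample left out in turn it was past the threshold in 5 of 10 edgeR fits, with adjusted p-values of up to 0.0697. It was -0.46 within replicates 2 and 3 (adjusted p-value 0.233) and -0.31 within replicates 1, 4 and 5 (0.176), where fewer samples were tested, and -0.44 to -0.33 with each sample left out. The number of the 10 genes called was 5 with DESeq2, 4 with the GC-content offset, 4 with the replicate block and GC-content offset, 1 with no filter on low counts, 0 within either set of samples, and 0 to 3 with a sample left out. The replicate block changed the calls of Cep152 and Stil and of no other of the 10 genes. Cep63 turned to 0.020 with the GC-content offset and to 0.012 with the block and offset, and ran from -0.061 to 0.0023 with a sample left out, positive without Dot1l-cKO replicate 1. Of the 115 listed genes, against 5, the count was 9 with DESeq2 size factors, 18 with DESeq2, 9 with the GC-content offset, 14 with the column-number block, 8 with limma, 12 with the replicate block and offset, 11 with the replicate block, 0 within replicates 2 and 3, 1 within the others, and 1 to 12 with a sample left out, where leaving out control replicate 5 gave 12. Of all genes, against 1212, it was 2011 with DESeq2, 1828 with the block and offset, 1 within replicates 2 and 3, 745 within the others, and 750 to 1357 with a sample left out. Decreased genes numbered 246, against 663 with DESeq2, 407 with the offset, 597 with the column-number block, 710 with the replicate block and offset, 495 with the replicate block, 0 and 155 within the sets, and 126 to 343 with a sample left out. The cause of these shifts was not tested. Another scaling moved the median of all genes by at most 0.03 on the log2 scale. Counting error was smaller than the spread between replicates for each of the 10 genes.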
